A study of Mus musculus with 6 samples.

Results

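The Hes, Hey and Id genes encode helix-loop-helix regulators that are read as outputs of Notch and BMP signalling in neural stem cells. The genes were taken by name, with no measured value used, from the deposited table: Hes1, Hes5, Hes6, Hey1, Hey2, Heyl, Id1, Id2, Id3 and Id4. All 10 had a row and passed the filter on low counts, among 18614 genes in the table and 15126 tested. RNA was sequenced from mouse subventricular zone (SVZ), a strip of tissue lining the lateral ventricles in which neural stem cells persist. There were 3 libraries titled WT (Zhx2+/+) and 3 titled KO (Zhx2Δ/Δ, homozygous for a deletion of Zhx2). Against its title, library KO 2 carries the genotype tag ZHX3 KO, and KO 3 carries ZHX4 KO. How old the mice were, their strain, and which cells lack how much of Zhx2 is not given in the sources used here. No label ties a library to its own animal, and p-values therefore describe the spread among these libraries alone, which may be technical.

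Notch receptors, once cut, release an intracellular domain that binds RBPJ on DNA and switches on genes such as Hes1, Hes5, Hey1, Hey2 and Heyl. These encode repressors that hold back proneural factors and so keep neural stem cells undifferentiated. BMP receptors act through SMAD proteins to raise Id genes; the Id proteins lack a basic region, do not bind DNA and sequester the E proteins that proneural factors need as partners. In the adult SVZ both pathways are known for keeping stem cells in a slow or resting state.

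The libraries held between 17037152 and 17685906 estimated counts. Zhx2 itself was at 39.8, 40.5 and 38.2 CPM (counts scaled to a common library total) in WT 1 to 3, against 67.1, 57.8 and 56.3 CPM in the libraries KO 1 to 3. It was thus not lower in the libraries labelled KO, and every direction below is that of the labels. Summed over 12 markers, choroid plexus was at 5354 to 22875 CPM in WT and 323 to 521 CPM in libraries labelled KO, with WT 3 the lowest WT library and no marker at 0. Summed over 10 markers, ependymal cells were at 194 to 280 CPM in WT, with 98.5 to 143 CPM in the KO-labelled group. Microglia, over 8 markers, were at 368 to 443 and 461 to 575 CPM. The other 8 marker lists overlapped between the groups. Among them, striatal projection neurons differed widely within WT, at 406, 6214 and 1789 CPM in WT 1 to 3. In the KO-labelled libraries they were at 2877 to 3628 CPM. Astrocytes and quiescent stem cells, the cells in which many of these regulators act, summed to between 5372 and 7639 CPM over all 6 libraries, and activated stem cells and their progeny to between 223 and 295 CPM. Neuroblasts were at 415 to 551 CPM, oligodendrocytes at 8066 to 18629 CPM and oligodendrocyte precursors at 419 to 585 CPM. Single markers of activated stem cells and neuroblasts spread more widely than their sums. From WT 1 to WT 2, Mki67 rose from 1.73 to 14.3 CPM and Top2a from 1.46 to 13.6 CPM. Between the same libraries Dlx1 fell from 131 to 32.7 CPM and Dlx2 from 37.9 to 17.8 CPM. Tubb3, with 260 to 360 CPM, made up most of the neuroblast sum, while Sp8 fell from 35.7 to 2.76 CPM. Similar sums therefore do not show similar cell content. Each of the 11 lists had all of its markers above 0 in every library.

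Levels were first compared between the genes per length, as FPKM (fragments per kilobase of transcript, scaled to library size) summed over a gene's transcripts. Id4, which encodes an Id protein linked to the resting state of adult neural stem cells, was highest at 80.8 ± 21.9 FPKM in WT, with 67.7 ± 7.33 FPKM in the KO-labelled group (SD, n = 3). Id2, at 47.0 ± 3.13 and 43.6 ± 11.0 FPKM, and Id3, at 36.9 ± 5.85 and 35.9 ± 6.59 FPKM, came next. Hey1 was the most abundant of the Notch target genes in the set, at 23.8 ± 1.35 FPKM in WT, with 26.1 ± 1.65 FPKM in the KO-labelled group (SD, n = 3). Id1 followed at 16.9 ± 2.57 and 15.9 ± 2.41 FPKM.

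The Hes genes lay lower. Hes6 was at 9.46 ± 1.86 FPKM in WT, with 9.00 ± 0.673 FPKM in the KO-labelled group, Hes5 at 6.87 ± 0.838 and 8.19 ± 0.558 FPKM, and Hes1 at 6.38 ± 1.70 and 6.93 ± 2.25 FPKM (SD, n = 3). Hey2 was at 4.57 ± 0.575 FPKM in WT, with 2.39 ± 0.144 FPKM in the KO-labelled group, and Heyl at 1.36 ± 0.387 and 1.72 ± 0.681 FPKM. The order of the group means was the same in both groups. Neighbours whose libraries overlapped, and which therefore were not separated beyond their spread, were Hes5 and Hes1, and Hes1 and Hey2, in WT. In the KO-labelled group they were Id2 and Id3, Hes6 and Hes5, Hes5 and Hes1, and Hey2 and Heyl.

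**Figure D1:**
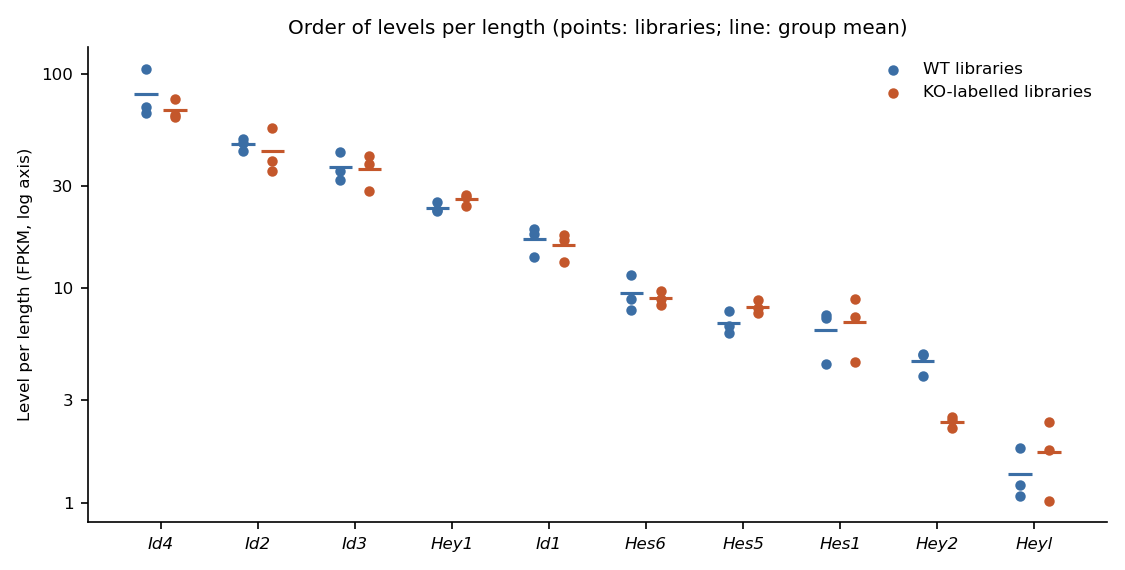
Level per length of each gene in FPKM on a log axis, ordered by the WT mean, with WT libraries in blue and KO-labelled libraries in orange (points: libraries; line: group mean). Id4 stands at the top at 80.8 FPKM in WT and Heyl at the bottom at 1.36 FPKM, and Hey2 is the gene whose 2 colours separate.

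Added per length, the 4 Id genes made up between 73.2% and 80.4% of the summed FPKM of the 10 genes. The 3 Hey genes made up between 11.9% and 15.1% and the 3 Hes genes between 7.66% and 11.7%. The sums per family overlapped between the groups. The Hes sum was 22.7 ± 2.52 FPKM in WT, with 24.1 ± 2.84 FPKM in the KO-labelled group (exact permutation p = 0.6, two-sided, n = 3). For Hey the sums were 29.8 ± 1.67 and 30.2 ± 1.80 FPKM (exact permutation p = 0.7, n = 3), and for Id 182 ± 26.1 and 163 ± 12.04 FPKM (exact permutation p = 0.4, n = 3). The family totals thus did not separate the groups, and the Hey total hides a member that did.

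That member was Hey2, a repressor best known from heart and blood vessel development. Hey2 (NCBI gene 15214) maps to the minus strand of chromosome 10 (mm10, positions 30832359 to 30842783). By estimated count it had 219, 212 and 170 in WT 1 to 3, against 111, 98 and 105 in the libraries KO 1 to 3. On the CPM scale, which corrects for library size by the trimmed mean of M values (TMM), these were 11.9, 12.7 and 9.86 CPM in WT, against 6.54, 5.64 and 6.17 CPM in the KO-labelled libraries. Every library labelled KO lay below every WT library, and the spread among them was narrow. The group means were 11.5 ± 1.47 and 6.12 ± 0.449 CPM (SD, n = 3), a level with the KO label of 0.533 times that in WT, with a 95% interval from 0.410 to 0.692.

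The log2 fold change of Hey2 was -0.91 (SE 0.16), and it did not pass the threshold of 0.05 in edgeR's quasi-likelihood test after Benjamini-Hochberg adjustment over all genes (adjusted p = 0.173). The unadjusted p was 0.000799, and the exact permutation p of the CPM values was 0.1, the smallest that 3 against 3 can give (two-sided). DESeq2 called Hey2 (adjusted p = 0.00234), and limma-voom did not (adjusted p = 0.350). DESeq2 kept that call in 4 of 6 fits with a single library left out and lost it without WT 1 (adjusted p = 0.0845) or WT 2 (0.0520). With edgeR and a single library left out, the log2 fold change lay between -1.01 (without WT 3) and -0.84 (without WT 2). With KO 1 alone against WT it was -0.81. Over the other alternatives, tools included, the adjusted p lay between 0.00118 and 0.494.

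Among the 10 genes edgeR called 0, with 1, Hey2, at an unadjusted p under 0.05. Over all genes it also called 0 (0% of 15126), and 9.07% had an unadjusted p under 0.05, 6.39% with a lower and 2.68% with a higher level in the KO-labelled libraries. DESeq2 called 1 of the 10, against 2.06% of all genes (2.02% lower in the KO-labelled libraries), and limma-voom called 0 of the 10 and 0% of all genes. With limma-voom 1 of the 10 had an unadjusted p under 0.05, and the share of all genes was not computed for that tool. Groups did not overlap in 1 of the 10 genes, against 16.7% of all genes tested, including 8.74% lower in the KO-labelled libraries. For the unadjusted p of edgeR and for groups that do not overlap, 1 in 10 is close to the background. Of the 10 log2 fold changes 4 were positive and 6 negative, where 46.6% of all genes were negative, and the median was -0.03, beside 0.02 over all genes.

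The markers of choroid plexus and ependymal cells were lower in the same libraries as Hey2. In WT 3 the choroid plexus sum was 5354 CPM against 22875 CPM in WT 1 and 17861 CPM in WT 2, while Hey2 was at 9.86 CPM against 11.9 and 12.7 CPM. WT 3 was therefore the lowest WT library for choroid plexus markers and for Hey2. For ependymal markers WT 2, where Hey2 was highest, was the lowest WT library at 194 CPM, with 197 CPM in WT 3 and 280 CPM in WT 1. The part of these markers in the difference of Hey2 was not tested. In bulk tissue, fewer cells that express a gene and less RNA per cell cannot be told apart. The RefSeq model of the long noncoding RNA Gm51763 lies within the span of Hey2. Whether reads of the pair were separated was not tested, and the counting is not stated to use strand.

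**Figure D2:**
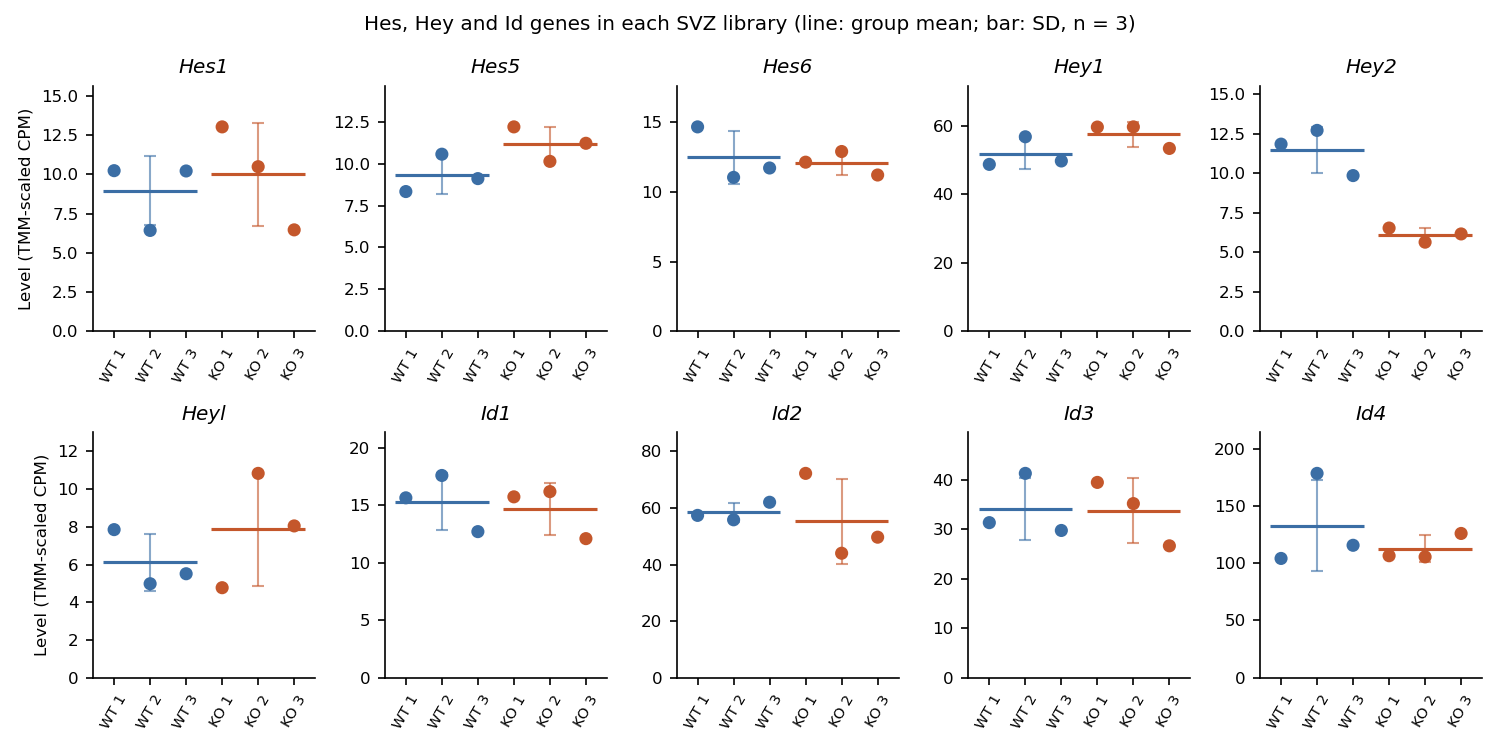
Level of each gene in TMM-scaled CPM in the 6 libraries, with the axis from 0, WT in blue and KO-labelled in orange (points: libraries; horizontal line: group mean; vertical bar: SD, n = 3). In the Hey2 panel the KO-labelled libraries lie between 5.64 and 6.54 CPM, below the lowest WT library at 9.86 CPM, and the points of the other 9 genes overlap.

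Promoter windows of RefSeq on GRCm38.p6 (250 bases before to 50 after the start) were matched for Hes5, Hes6, Hey2, Id2, Id3 and Id4. Hes1, Hey1, Heyl and Id1 were not matched. The RBPJ core letters TGGGAA, or TTCCCA on the other strand, were found at 2 places each in Hey2 and Hes5 and at 1 in Id4. They were not in these windows of Hes6, Id2 or Id3. Of 32817 windows of the same length, 25.6% hold these letters. Hey2 is shown as the gene whose groups separated, and Id4 as the most abundant gene of the set, which carries the same core. Each sequence runs 5′ to 3′ from 250 bases before to 25 after the start, and the capitals mark the core. Hey2 is at chr10:30842759-30843033 on the minus strand and Id4 at chr13:48260866-48261140 on the plus strand. The Hes5 window and 1 of the 2 of Hes6 lie within the span that RefSeq lists for the gene. That of Hes5 is therefore described here and not printed.
Hey2: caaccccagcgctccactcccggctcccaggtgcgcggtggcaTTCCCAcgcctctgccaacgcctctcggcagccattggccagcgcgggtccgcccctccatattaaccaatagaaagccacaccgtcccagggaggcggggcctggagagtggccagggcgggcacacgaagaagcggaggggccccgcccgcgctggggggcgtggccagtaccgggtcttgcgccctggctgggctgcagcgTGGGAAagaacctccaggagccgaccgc
Id4: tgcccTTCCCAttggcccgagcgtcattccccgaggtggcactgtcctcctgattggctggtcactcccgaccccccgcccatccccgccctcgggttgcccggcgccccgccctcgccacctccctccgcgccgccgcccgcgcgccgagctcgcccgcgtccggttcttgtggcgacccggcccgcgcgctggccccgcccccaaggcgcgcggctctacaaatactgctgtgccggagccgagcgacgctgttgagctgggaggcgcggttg

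In Hey2 the letters begin at -207 and -3 from the start, in Hes5 at -226 and -82, and in Id4 at -245. The GC-rich letters GGCGCC, their own reverse complement, were found at 4 places in Hes5 and at 1 each in Hey2, Id2 and Id4, against 11.9% of all windows with at least 1. The E-box letters CACGTG were in no window of the 6 genes (7.15% of all windows). The N-box letters CACNAG, or CTNGTG, were in 1 of the 2 windows of Hes6 and in those of Id2 and Id4 (42.5% of all windows). The windows are rich in G and C, from 60.0% in Id3 to 73.3% in Id4, against a median of 52.7% over all windows. These matches are a description of letters and not of bound sites.

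Hey1, a close relative of Hey2, had a log2 fold change of the other sign. Hey1 (NCBI gene 15213) maps to the minus strand of chromosome 3 (mm10, positions 8663359 to 8667038). Its level was 48.7, 56.8 and 49.7 CPM in WT 1 to 3, against 59.6, 59.7 and 53.4 CPM in the libraries KO 1 to 3. KO 1 and KO 2 lay above all WT libraries, and KO 3 lay below WT 2. edgeR gave a log2 fold change of 0.15 (SE 0.10, edgeR adjusted p = 0.702), with a 95% interval from -0.09 to 0.40.

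The ratio of Hey2 to Hey1 within a library does not depend on how libraries are scaled. Its log2 was -2.04, -2.16 and -2.33 in WT 1 to 3, against -3.19, -3.40 and -3.11 in the libraries KO 1 to 3. The groups did not overlap. The geometric mean of the ratio of estimated counts was 0.221 in WT and 0.106 in the KO-labelled group, a log2 difference of -1.06 (exact permutation p = 0.1, the smallest possible with 3 against 3, two-sided; 0.4 when adjusted over the 4 ratios computed). With single libraries left out the difference stayed between -1.14 and -0.97.

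Heyl, the third Hey gene and known from smooth muscle and pericytes of blood vessels, varied most among libraries. Heyl (NCBI gene 56198) maps to the plus strand of chromosome 4 (mm10, positions 123233556 to 123249870). Its level was 7.85, 4.98 and 5.51 CPM in WT 1 to 3, against 4.77, 10.8 and 8.04 CPM in the libraries KO 1 to 3. The lowest and the highest value were both in libraries labelled KO. This was a log2 fold change of 0.37 (SE 0.33, edgeR adjusted p = 0.774), with a 95% interval from -0.42 to 1.15. With KO 1 alone against WT it was -0.36. Mural cell markers, 8 genes, summed to 200, 285 and 271 CPM in WT, against 247, 443 and 274 CPM in the KO-labelled libraries, so KO 2 was highest in both, while WT 1, the lowest library for mural markers, was the highest WT library for Heyl. The mural markers did not all move together. Acta2 was highest in KO 2, at 74.5 CPM against 8.71 to 29.5 CPM in the other libraries. Myh11, Tagln, Vtn and Pdgfrb were also highest in KO 2, while Rgs5 and Abcc9 were highest in WT 2 and Kcnj8 in KO 1. Abcc9 was lowest in KO 2, at 13.65 CPM, close to 13.8 CPM in WT 1 and 13.9 CPM in KO 1. The part of mural cells in Heyl was not tested.

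Hes1, a repressor whose oscillating level is known to time the choice between progenitor and neuron, was uneven within both groups. Hes1 (NCBI gene 15205) maps to the plus strand of chromosome 16 (mm10, positions 30065357 to 30067796). Its level was 10.2, 6.42 and 10.2 CPM in WT 1 to 3, against 13.0, 10.5 and 6.46 CPM in the libraries KO 1 to 3. One library in each group, WT 2 and KO 3, was low, and the 2 low values were nearly equal. The log2 fold change was 0.16 (SE 0.30, edgeR adjusted p = 0.901), with a 95% interval from -0.56 to 0.88. It was negative without KO 1 (-0.08) or without WT 2 (-0.04).

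Hes5, the Notch target most tied to neural stem cells and their progeny, was somewhat higher in the KO-labelled libraries but overlapped. Hes5 (NCBI gene 15208) maps to the plus strand of chromosome 4 (mm10, positions 154960626 to 154962372). Its level was 8.34, 10.6 and 9.11 CPM in WT 1 to 3, against 12.2, 10.1 and 11.2 CPM in the libraries KO 1 to 3. KO 1 and KO 3 lay above all WT libraries, and KO 2 lay below WT 2. edgeR gave a log2 fold change of 0.26 (SE 0.15, edgeR adjusted p = 0.656), with a 95% interval from -0.10 to 0.62. It was positive in each fit with a single library left out, from 0.19 to 0.35.

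Hes6 differs in role from the other Hes genes: it is known to counter Hes1 and to favour neuronal differentiation. Hes6 (NCBI gene 55927) maps to the minus strand of chromosome 1 (mm10, positions 91411483 to 91414038). Its level was 14.7, 11.0 and 11.7 CPM in WT 1 to 3, against 12.1, 12.9 and 11.2 CPM in the libraries KO 1 to 3. The KO-labelled libraries lay within the WT range. This was a log2 fold change of -0.05 (SE 0.15, edgeR adjusted p = 0.948), with a 95% interval from -0.41 to 0.31, and it was 0.09 without WT 1.

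Ratios among the Hes genes overlapped between the groups. The log2 ratio of Hes5 to Hes1 was -0.30, 0.72 and -0.16 in WT, against -0.09, -0.05 and 0.80 in the KO-labelled libraries, a difference of 0.13 (exact permutation p = 0.5, n = 3). The 2 high values belong to WT 2 and KO 3, where Hes1 was low. For Hes6 to Hes1 the ratio was 0.52, 0.78 and 0.20 in WT, against -0.10, 0.30 and 0.80 in the KO-labelled libraries, a difference of -0.17 (exact permutation p = 0.7, n = 3). Adjusted over the 4 ratios, both p-values were 0.9.

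The Id genes did not separate the groups. Id1 (NCBI gene 15901; plus strand of mm10 chromosome 2, positions 152736251 to 152737410), a direct target of BMP-activated SMADs, was at 15.6, 17.6 and 12.7 CPM in WT, against 15.7, 16.2 and 12.1 CPM in the KO-labelled libraries. Id3 (NCBI gene 15903; plus strand of mm10 chromosome 4, positions 136143822 to 136145392), which responds to the same SMADs, was at 31.3, 41.3 and 29.8 CPM in WT, against 39.5, 35.2 and 26.7 CPM in the KO-labelled libraries. Replicate 3 was the lowest library of its group for both genes, and WT 2 was the highest library of all for both. The log2 fold changes were -0.06 (SE 0.18, 95% interval from -0.48 to 0.36, edgeR adjusted p = 0.939) for Id1 and -0.02 (SE 0.19, 95% interval from -0.47 to 0.44, edgeR adjusted p = 0.987) for Id3. Their sign changed when some single libraries were left out. Endothelial markers, 9 genes, were also highest in WT 2, at 272 CPM, but lowest in KO 1, at 195 CPM, where Id3 was second highest, and their part in Id1 and Id3 was not tested.

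Id2, known for blocking the differentiation of many lineages, spread more widely among KO-labelled than among WT libraries. Id2 (NCBI gene 15902; minus strand of mm10 chromosome 12, positions 25093799 to 25096092) was at 57.4, 55.8 and 62.0 CPM in WT 1 to 3, against 72.2, 44.0 and 49.7 CPM in the libraries KO 1 to 3. KO 1 lay above all WT libraries, and KO 2 and KO 3 lay below them. The log2 fold change was -0.08 (SE 0.19, edgeR adjusted p = 0.924), with a 95% interval from -0.53 to 0.37. It was 0.31 with KO 1 alone against WT and -0.32 without KO 1. KO 1 also had the highest level of Neurod2, a cortical excitatory neuron gene, at 85.2 CPM, against 2.38, 0.600 and 31.2 CPM across WT 1 to 3, and with 12.8 CPM for KO 2 and 1.47 CPM for KO 3. KO 1 had the highest sum of oligodendrocyte markers as well, at 18629 CPM, but the lowest sum was in KO 3, at 8066 CPM, while Id2 was lowest in KO 2. The part of these cells in Id2 was not tested.

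Id4 had the largest negative log2 fold change of the 10 after Hey2, with WT 2 apart from the other libraries. Id4 (NCBI gene 15904; plus strand of mm10 chromosome 13, positions 48261116 to 48266028) was at 104, 178 and 116 CPM in WT 1 to 3, against 107, 106 and 126 CPM in the libraries KO 1 to 3. WT 2 stood above the rest, and the other 5 libraries lay between 104 and 126 CPM. edgeR gave a log2 fold change of -0.24 (SE 0.21, edgeR adjusted p = 0.774), with a 95% interval from -0.75 to 0.27, and it was 0.02 without WT 2. WT 2 also had the highest sum of striatal projection neuron markers, 7 genes, at 6214 CPM, against 406 to 3628 CPM in the other libraries, and the part of these cells in Id4 was not tested. The log2 ratio of Id4 to Id1 was 2.73, 3.34 and 3.19 in WT, against 2.76, 2.705 and 3.38 in the KO-labelled libraries, a difference of -0.14 (exact permutation p = 0.9, n = 3; 0.9 when adjusted over the 4 ratios).

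**Figure D3:**
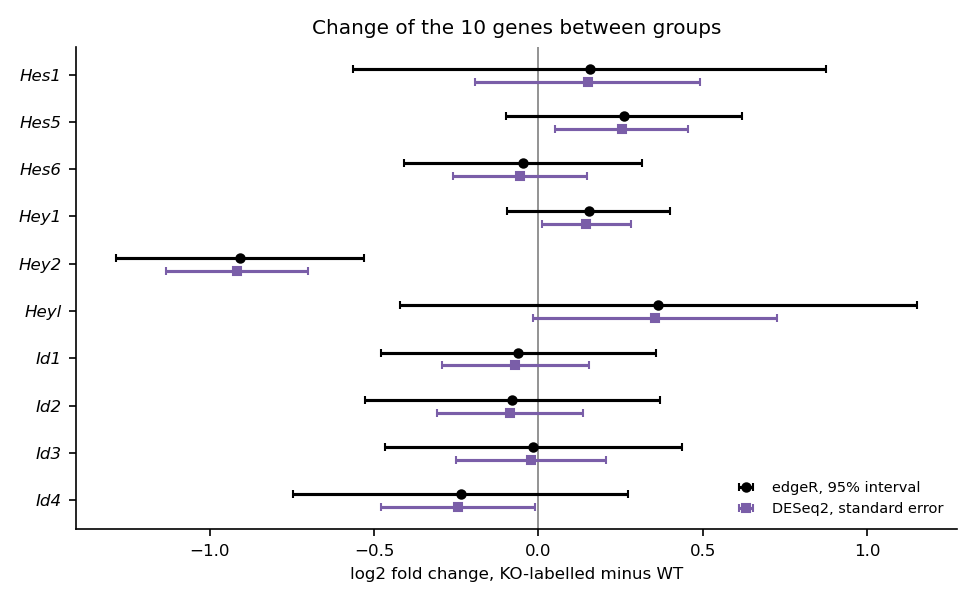
Log2 fold change of each gene, KO-labelled minus WT, by edgeR with its 95% interval (black circles) and by DESeq2 with its standard error (purple squares). The edgeR interval of Hey2, unadjusted for the number of genes, runs from -1.29 to -0.53 and is the only one of the 10 that does not cross 0.

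**Figure D4:**
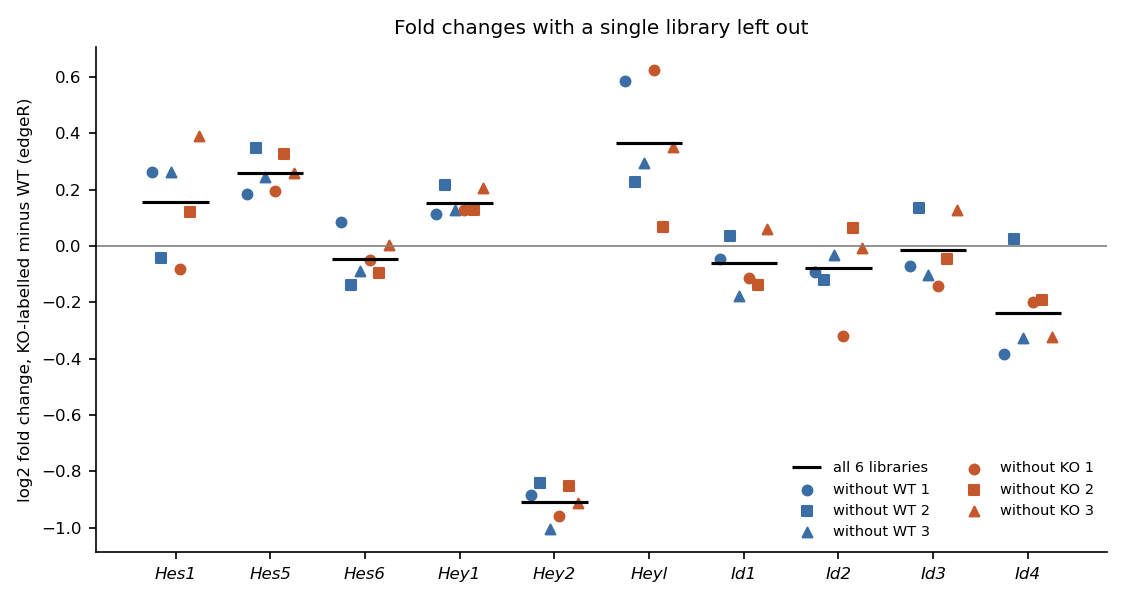
Log2 fold change of each gene by edgeR with all 6 libraries (black line) and with each library left out in turn (blue: a WT library; orange: a KO-labelled library). Hey2 stays between -1.01 and -0.84, Hes5 and Hey1 and Heyl stay above 0, and points of Hes1, Hes6 and the 4 Id genes fall on both sides of 0.

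Transcripts of the 10 genes were also listed separately in the table. Hey2, Heyl, Id2, Id3 and Id4 had a single RefSeq transcript each, and the others had 2. In Hes1, Hes6, Hey1 and Id1 the main transcript carried at least 91.2% of the gene's estimated counts in every library. In Hes5 the predicted transcript carried 14.2% to 29.7%, the most of any second transcript, with 29.7%, 14.4% and 23.8% across WT 1 to 3, against 19.3%, 14.2% and 23.5% across KO 1 to 3. The Hes5 split overlapped between the groups. These are estimated splits between overlapping transcripts. RefSeq gene models other than Gm51763 also overlap Hey1 and Id4.

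The genes with the most similar pattern over the 6 libraries were found for the 3 genes that varied most, by the root mean square difference of centred log2 CPM among 14486 other genes with a mean of at least 1 CPM. For Hey2 the nearest were Six4, Heg1 and Parp4, at differences of 0.084, 0.107 and 0.107 log2 units. Heg1, which encodes a membrane protein of blood vessel and heart development, was at 75.9, 69.4 and 54.5 CPM in WT, against 33.6, 30.1 and 31.8 CPM in the KO-labelled libraries. Six4, a homeobox gene, was at 3.46, 3.96 and 3.07 CPM in WT, against 1.83, 1.90 and 1.88 CPM in the KO-labelled libraries. Both thus had the same 3 high and 3 low libraries as Hey2, with WT 3 the lowest of WT. For Heyl the nearest were Ell3, Fcrlb and Vsig10l, at 0.076, 0.107 and 0.140. For Hes1 they were Lmna, Mblac1 and G0s2, at 0.104, 0.108 and 0.117. The other Hes, Hey and Id genes were far down these orders. The best placed was Hes6, at rank 1710 for Hes1. For Hey2 the best placed was Id4, at rank 2482 and a difference of 0.413, while Hey1 was at 0.543. With so many genes and only 6 libraries, close matches arise readily, so likeness here is a description.

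The ligands and receptors that feed these genes showed a similar picture, with a single receptor apart. Of 7 Notch ligand genes 3 had a positive and 4 a negative log2 fold change, between -0.18 and 0.20. Among the 4 receptors, Notch2 was at 67.9, 69.1 and 47.2 CPM in WT 1 to 3, against 30.5, 32.0 and 29.5 CPM in the libraries KO 1 to 3. Like Hey2, Notch2 did not overlap between the groups and was lowest of WT in WT 3. Its log2 fold change was -1.003 (SE 0.16, edgeR adjusted p = 0.151; DESeq2 adjusted p = 6.84e-05). Choroid plexus markers, too, were lowest of WT in WT 3 and lower in the KO-labelled libraries, and their part in Notch2 was not tested. Notch1, Notch3 and Notch4 had log2 fold changes of -0.08, 0.04 and -0.06.

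Among 16 genes that process or modify Notch, the median log2 fold change was -0.01, and 3 had an unadjusted p under 0.05, all higher in the KO-labelled libraries. These were Rfng (0.29), a glycosyltransferase gene, Numbl (0.34), a Numb-type inhibitor gene, and Mib2 (0.23), a ubiquitin ligase gene for ligand uptake. Over all genes 9.07% had an unadjusted p under 0.05, with 2.68% higher in the KO-labelled libraries. The 16 genes did not move in a single direction, with 8 positive and 8 negative log2 fold changes. Groups did not overlap in 3 higher and 2 lower genes of the 16, against 16.7% of all genes. Of 7 nuclear and feedback genes, 1 had an unadjusted p under 0.05. This was Maml2, a coactivator gene, at 21.0, 19.0 and 18.9 CPM in WT, against 14.3, 14.2 and 13.1 CPM in the KO-labelled libraries (log2 fold change -0.50, SE 0.11, edgeR adjusted p = 0.221). Rbpj itself was at 43.4, 45.9 and 44.8 CPM in WT, against 42.2, 34.5 and 42.2 CPM in the KO-labelled libraries. Its groups did not overlap either (log2 fold change -0.17, SE 0.11, edgeR adjusted p = 0.686). Over the 34 Notch genes tested, edgeR called 0 and DESeq2 called 1, with 5 at an unadjusted p under 0.05, where all genes gave 9.07%. Groups did not overlap in 8 of them, 5 lower and 3 higher in the KO-labelled libraries, against 16.7% of all genes.

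Genes of the BMP pathway, which feeds the Id genes, were more often lower than higher. Of 35 tested, 24 had a negative log2 fold change, against 46.6% of all genes, with a median of -0.14 beside 0.02 over all genes, and edgeR and DESeq2 called 0. At an unadjusted p under 0.05 there were 3 of 35, all lower in the KO-labelled libraries, and groups did not overlap in 4 of 35, also all lower. Over all genes these shares were 6.39% and 8.74% for lower levels and 9.07% and 16.7% in either direction, so the counts lie near the background. Bmp6 was at 53.6, 46.6 and 28.1 CPM in WT, against 19.7, 33.1 and 21.0 CPM in the KO-labelled libraries (log2 fold change -0.80, SE 0.30), so WT 3 lay below KO 2. Bmp5 (-0.96, SE 0.26) and Twsg1 (-0.39, SE 0.14), which encodes an extracellular BMP-binding protein, were the others. Choroid plexus markers were lower in the KO-labelled libraries as well, and their part in these genes was not tested. The median over 7 ligand genes was -0.33, over 8 receptor genes -0.06, over 8 genes of signal transduction -0.13 and over 12 antagonist genes -0.05. Among receptor genes Bmpr1a had -0.25 (SE 0.12), and among signal transducers Smad5 had -0.19 (SE 0.09).

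**Figure D5:**
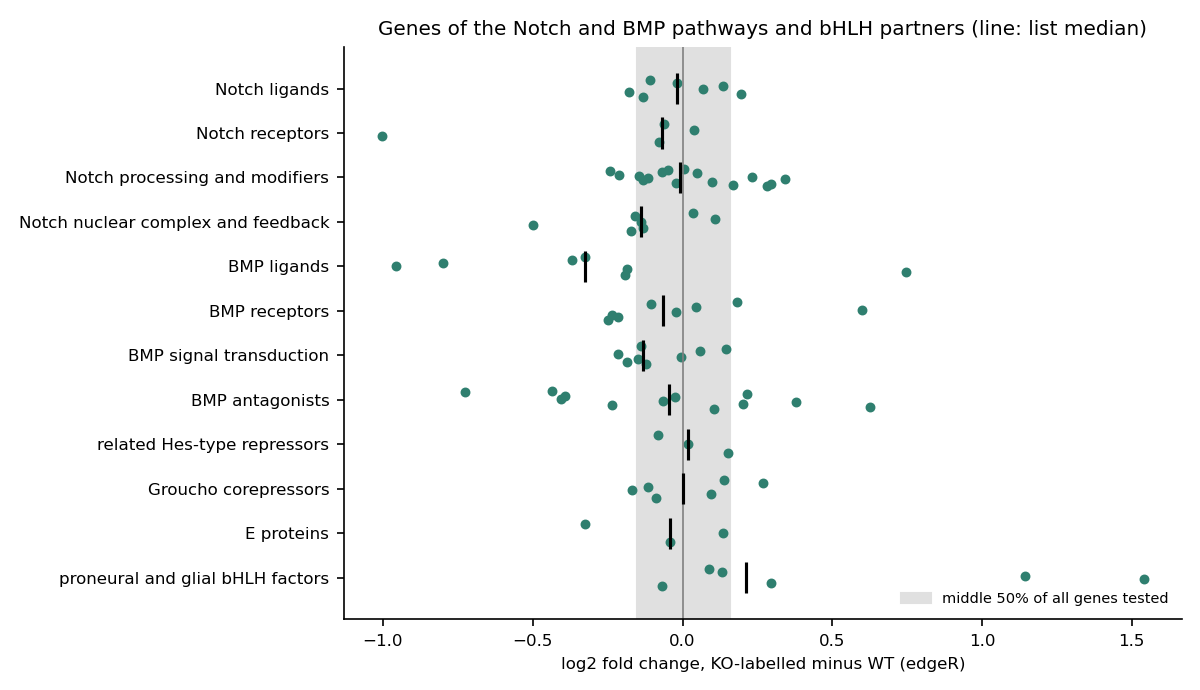
Log2 fold change by edgeR, KO-labelled minus WT, of each tested gene in 12 lists of Notch, BMP and basic helix-loop-helix partner genes (points: genes; black line: list median; grey band: middle 50% of all genes tested). Notch2 lies at -1.003 and the other 3 receptors between -0.08 and 0.04, and the median of the 7 BMP ligand genes is -0.33.

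Among 18 tested genes for partners, rivals and relatives of the Hes, Hey and Id proteins, groups did not overlap in 2, Tcf12 and Tle5, against 16.7% of all genes. Of the 3 E protein genes, Tcf12 was at 75.9, 76.0 and 73.3 CPM in WT, against 64.3, 49.6 and 65.8 CPM in the KO-labelled libraries (log2 fold change -0.33, SE 0.13, edgeR adjusted p = 0.519). Tcf3 and Tcf4 had log2 fold changes of -0.04 and 0.13. Among 6 genes of the Groucho family, Tle5, which encodes a short member of that family, was at 547, 510 and 554 CPM in WT, against 665, 712 and 567 CPM in the KO-labelled libraries (0.27, SE 0.12, edgeR adjusted p = 0.580). The related repressor genes Hes7, Bhlhe40 and Bhlhe41 had log2 fold changes of 0.15, 0.02 and -0.08. Of 12 proneural and glial factor genes 6 passed the filter. Their median was 0.21, with Neurod2 (1.54, SE 1.63) and Neurod6 (1.14, SE 1.60) at the top, both with wide spread in each group, while Olig1 had 0.13. Over these 18 genes edgeR and DESeq2 called 0, and 1 had an unadjusted p under 0.05, where all genes gave 9.07%.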

How the data were processed

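The authors deposited estimated counts and FPKM for 61481 RefSeq transcripts in 6 libraries; the count unit is per the file headers and the values. The FPKM unit was judged from the deposited values: counts divided by FPKM gave 1 length per transcript in all libraries, within 0.14% over 2631 transcripts. Per the submitters' processing notes the genome build was mm10 and the tools included limma 3.40.6. Which aligner, quantifier or annotation release was used is not given in the sources used here. The authors' group means were not used.

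Counts were summed per NCBI gene number, rounded and named from RefSeq GRCm38.p6 (18489 of 18614 genes; the others held 0.104% to 0.140% of counts). Strands came from GENCODE. A gene not seen could reach 0.170 to 0.176 CPM (3 counts, counting error only). No 2 libraries of a group agreed within sampling noise (chi-square per degree of freedom 21.7 to 95.4). The test across genes was that of edgeR 4.0.16 under R 4.3.3 (TMM scaling, filterByExpr with a minimum count of 10, robust quasi-likelihood F test, two-sided, adjusted over 15126 genes), beside DESeq2 1.42.0 and limma-voom 3.58.1. The edgeR procedure was also run on simulated counts, and the outcome is not given here. Those counts did not model the differences in marker sums among these libraries. A standard error is the log2 fold change over the root of its F. Exact permutation tests used scipy 1.17.1.

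Named are the 10 genes, up to 3 genes with the smallest p of each of 12 pathway lists, the nearest patterns, Zhx2, and, outside that rule, Notch3. The 11 marker lists are given as sums, with some of the single markers named that spread unlike their sum. Genes, lists and tests were chosen with earlier results of these data known. A comparison of the proteins was planned and is not made here.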

Additional observations from a re-analysis of the deposited data

How the results depend on the processing

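Hey2, Hes5 and Hey1 kept their sign in all 21 alternatives each. The count of genes past the threshold was 0 with edgeR and 311 with DESeq2. With single libraries left out it was 0 to 137 in edgeR, the highest without WT 3. In DESeq2, fits added after the data were seen, it was 139, 348 and 451 without WT 1, 2 and 3 and 275, 257 and 318 without KO 1, 2 and 3. Hey2 passed with DESeq2 (-0.92), also without WT 3 (-1.02), KO 1 (-0.98), KO 2 (-0.86) or KO 3 (-0.92).

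Signs turned as follows, and the cause was not tested. Without WT 2 the values by edgeR and DESeq2 were -0.044 and -0.041 for Hes1, 0.037 and 0.040 for Id1, 0.133 and 0.137 for Id3, and 0.025 and 0.029 for Id4. Without KO 1, Hes1 had -0.081 and -0.096. Without WT 1, Hes6 had 0.086 and 0.088. Without KO 3 they were 0.059 and 0.051 for Id1 and 0.129 and 0.122 for Id3, and Hes6 had 0.0040 by edgeR. Without KO 2, Id2 had 0.062 and 0.054. With KO 1 alone against WT, where the lone library is assumed to vary like WT, the sign turned for Heyl (-0.357), Id1 (0.040), Id2 (0.308) and Id3 (0.211). Ranges by edgeR over the single libraries left out were -0.08 to 0.39 (Hes1), -0.14 to 0.09 (Hes6), 0.07 to 0.62 (Heyl), -0.18 to 0.06 (Id1), -0.32 to 0.06 (Id2), -0.14 to 0.13 (Id3) and -0.38 to 0.02 (Id4). The ratio of Hes5 to Hes1 ranged from -0.157 to 0.448 (-0.059 without WT 1), that of Hes6 to Hes1 from -0.401 to 0.048, and that of Id4 to Id1 from -0.356 to -0.012.

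With the replicate block, Hey2 had a log2 fold change of -0.90 (edgeR adjusted p = 0.360), 0 genes passed and no other call changed. Deviations of same-numbered libraries from their group means correlated at -0.162, -0.0674 and -0.0368, and no library correlated best with its own number. With 3 libraries per group that differ in marker sums, these values cannot show whether equal numbers mark libraries made together. At 81 to 221 estimated counts per library, Hes1, Hes5, Hey2 and Heyl carry more counting error than Id4, with at least 1808; Hes6 lay between 184 and 271.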
